A study of Mus musculus with 8 samples.

Results

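The 10 genes described here are the bone morphogenetic protein (BMP) ligands Bmp2, Bmp4 and Bmp7, the secreted antagonists Grem1 and Fst, the decoy receptor Bambi and the inhibitor of DNA binding genes Id1, Id2, Id3 and Id4. They were chosen by symbol, and all 10 were found among the 31053 genes of the count tables. Their UMI counts were read in 8 single-cell libraries of dorsal skin from female BALB/c mice aged 14 to 16 weeks, with 1 library per mouse. PBMCsec, a mixture of factors released by blood mononuclear cells after irradiation, was injected under the skin of 4 mice, and 4 mice received vehicle. Libraries are numbered 1 to 4 within each treatment. Nothing in the labels states wounding, a time point or the composition of the vehicle, so groups were compared by treatment alone.

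BMPs are secreted ligands of the TGF-beta superfamily that bind type I and type II serine/threonine kinase receptors and signal through Smad1, Smad5 and Smad9 together with Smad4. Id genes are classical targets of this signal, and their products hold basic helix-loop-helix transcription factors away from DNA. Gremlin, the product of Grem1, binds BMP ligands in the extracellular space, follistatin (Fst) binds activins above all, and Bambi resembles a type I receptor without a kinase domain. In skin, BMP signals are known to hold hair follicle stem cells at rest and to be required for differentiation of the hair shaft and inner root sheath.

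All 10 genes are protein coding. The files list them by Ensembl identifier, and positions are those of GRCm38. Of the ligands, Bmp2 (ENSMUSG00000027358) lies at chr2:133552159-133562885 on the plus strand, Bmp4 (ENSMUSG00000021835) at chr14:46383520-46390669 on the minus strand and Bmp7 (ENSMUSG00000008999) at chr2:172868012-172940321 on the minus strand. Grem1 (ENSMUSG00000074934) lies at chr2:113746164-113758646 and Fst (ENSMUSG00000021765) at chr13:114452290-114458951, both on the minus strand, and Bambi (ENSMUSG00000024232) lies on another chromosome. Id1 (ENSMUSG00000042745) lies at chr2:152736251-152737410, Id2 (ENSMUSG00000020644) at chr12:25093799-25097140, Id3 (ENSMUSG00000007872) at chr4:136143497-136145755 and Id4 (ENSMUSG00000021379) at chr13:48261228-48266026, with Id2 alone among the 4 on the minus strand.

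The promoters of Bmp4, Grem1 and Id4, a ligand, an antagonist and a target, are shown from among the members with a matched RefSeq promoter. The levels of these 3 genes in clusters are described below. Each run holds the 250 bases before the RefSeq transcription start (GRCm38.p6), 5′ to 3′ on the strand of the gene, at chr14:46390670-46390919 (minus), chr2:113758649-113758898 (minus) and chr13:48260866-48261115 (plus). Capitals mark GGCGCC, a GC-rich element of the kind described for Smad1 and Smad5, and CACGTG, a palindromic E-box.

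Bmp4: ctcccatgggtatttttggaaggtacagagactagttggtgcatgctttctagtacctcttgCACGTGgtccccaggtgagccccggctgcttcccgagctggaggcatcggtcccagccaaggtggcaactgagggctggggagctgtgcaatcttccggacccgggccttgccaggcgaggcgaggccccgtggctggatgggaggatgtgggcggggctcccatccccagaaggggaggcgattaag

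Grem1: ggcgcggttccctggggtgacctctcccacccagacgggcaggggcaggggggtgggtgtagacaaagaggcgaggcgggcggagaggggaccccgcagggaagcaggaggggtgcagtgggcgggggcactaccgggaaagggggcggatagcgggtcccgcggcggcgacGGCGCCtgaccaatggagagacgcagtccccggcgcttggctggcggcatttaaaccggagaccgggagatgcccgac

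Id4: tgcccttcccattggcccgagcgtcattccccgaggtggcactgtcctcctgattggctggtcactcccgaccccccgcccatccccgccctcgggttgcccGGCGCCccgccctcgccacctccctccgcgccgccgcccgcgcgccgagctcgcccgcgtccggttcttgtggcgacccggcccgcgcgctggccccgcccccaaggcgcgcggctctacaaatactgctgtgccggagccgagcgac

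RefSeq promoters were matched for Bmp4, Grem1, Id2, Id3 and Id4. GGCGCC was found on either strand in the 300 bases around the start (250 before, 50 after) of Grem1, Id2 and Id4, and 11.9% of the 32851 promoters in the table held it. Its first base stood 78 bases before the start of Grem1, 231 bases before that of Id2 and 148 bases before that of Id4. CACGTG was found in the promoter of Bmp4 and in 7.15% of all promoters. GTCTAGAC, the Smad palindrome, and TATAAA were found in none of the 5, against 0.213% and 13.6% of all promoters. These are matches of letters, and no binding was measured.

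Of 26231 barcodes, 6150 passed the filter on genes, UMIs and mitochondrial reads, between 151 and 1659 per library, and total counts were 14753926 to 37880651 UMIs per library. Between 0 and 2 barcodes per library were shared with another one. Vehicle libraries 1 and 2 kept the fewest cells (151 and 208), and results that turn on them are also given without them. Clustering, from which the members and 40 other pathway genes were left out, gave 35 clusters. Of these, 8 held 1607 fibroblasts (FBs), 3 held 824 keratinocytes (KCs) of the interfollicular type and 9 held 1972 hair follicle cells (HFs). Names ending in "-like" rest on marker genes, and other clusters are called by their leading genes. In FBs the 8 FB markers summed to 37738 to 48503 CPM (UMIs of a gene scaled to a common total) per library and the 12 epithelial markers to 170 to 683 CPM, while in KCs and HFs the 8 FB markers summed to 42.1 to 579 CPM and 69.5 to 337 CPM. T cells (TCs), which should lack Bmp4 and Grem1, served as a background class: 0 of 739 TCs had a UMI of either gene, which allows a share of up to 0.406%, at a median depth of 3307 UMIs against 8573 in FBs. Shares, intervals and this limit cover counting error only.

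**Figure D1:**
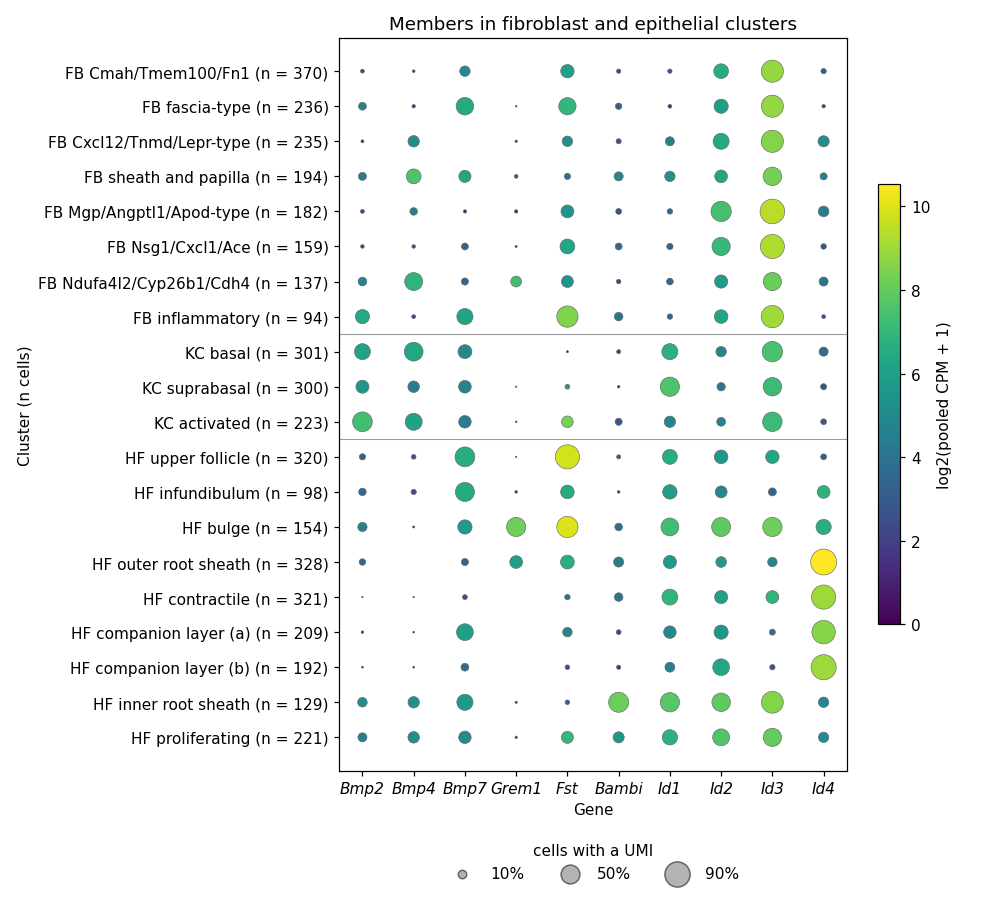
Level of each gene (colour, log2 of pooled CPM + 1) and percent of cells with at least 1 UMI (dot area) in the 20 FB, KC and HF clusters, with the number of cells of each. Id4 is concentrated in 4 hair follicle clusters, Fst in the upper follicle-like and bulge-like clusters, Bambi in the inner root sheath-like cluster and Id3 in all FB clusters.

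Bmp2 was highest in activated KC-like cells, a cluster led by Serpinb2 and Fosl1, where 55.6% of 223 cells had a UMI against 0.406% of TCs. This cluster passed 3 of the 6 markers of its list, and 2 of 6 in each of the basal KC and upper follicle lists. Whether upper follicle cells are among it was not tested. The level of Bmp2 there was 174, 155 and 193 CPM in PBMCsec libraries 1, 3 and 4 and 111, 185 and 181 CPM in vehicle libraries 2, 3 and 4. These values are scaled to all UMIs of the cluster in 1 library, for libraries with at least 10 cells of it. The 6 libraries overlapped between treatments and averaged 166 ± 29.9 CPM (SD, n = 6). Basal KC-like cells followed at 67.7 ± 46.3 CPM (n = 6), below the activated cells in 6 of 6 libraries, and the mean log2 difference of 1.34 exceeded its SD of 0.79. Suprabasal KC-like cells stood at 44.8 ± 6.55 CPM (n = 5) and inflammatory FB-like cells, marked by Ptx3, Ccl2 and Il6, at 59.2 ± 35.2 CPM (n = 4), and neither differed from its neighbour in this order by more than the spread between libraries. In HFs a UMI of Bmp2 was found in 5.68% of cells, from 0.312% of contractile-like cells, below the share in TCs, to 13.2% of inner root sheath-like cells.

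Bmp4 was found in both FB and KC clusters. In dermal sheath and papilla-like FBs it stood at 402, 179 and 91.6 CPM in PBMCsec libraries 1, 3 and 4 and at 55.8 and 49.6 CPM in vehicle libraries 3 and 4. Vehicle libraries 1 and 2, with 3 and 7 such cells, are not among these values; they held 35 and 23 Bmp4 UMIs there, or 1401 and 637 CPM. A second FB cluster, led by Ndufa4l2, Cyp26b1 and Cdh4, held 127 ± 40.3 CPM (n = 5), with 93.2, 86.8 and 131 CPM in PBMCsec libraries 1, 3 and 4 and 187 and 140 CPM in vehicle libraries 3 and 4. Basal and activated KC-like cells held 70.4 ± 22.6 CPM and 67.0 ± 10.7 CPM (n = 6 each) and differed from each other by less than the spread. Suprabasal KC-like cells held 18.3 ± 7.09 CPM (n = 5). UMIs of Bmp4 were found in 50.5% of basal KC-like cells, 46.0% of the Ndufa4l2/Cyp26b1/Cdh4 FBs and 31.4% of sheath and papilla-like FBs, and in 0 of 328 outer root sheath-like cells, which allows a share of up to 0.915%. Other HF clusters held it: 19.0% of 221 matrix and proliferating-like cells, which may include cycling KCs, had a UMI. In vehicle library 3, inner root sheath-like cells held 30 of the 71 Bmp4 UMIs of HFs.

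Bmp7 was highest in upper follicle-like cells by pooled level. Its level in upper follicle-like cells lay between 77.0 and 95.6 CPM in the 4 PBMCsec libraries and between 96.8 and 130 CPM in the 3 vehicle libraries with at least 10 such cells. Averages were 97.5 ± 18.1 CPM (n = 7) here, 74.9 ± 17.8 CPM (n = 5) in infundibulum-like cells and 90.2 ± 35.7 CPM (n = 5) in fascia-type FB-like cells, which have Pi16 among their leading genes. None of these differed from the next in order by more than its spread. The share of cells with a UMI was 55.9% in upper follicle-like, 52.0% in infundibulum-like and 44.1% in fascia-type cells, against 4.33% in TCs. Pi16 was also among the leading genes of the FB cluster led by Cmah and Tmem100, where the share was 15.7% of 370 cells. In the Mgp/Angptl1/Apod-type (1.65%) and Cxcl12/Tnmd/Lepr-type (0 of 235) FB-like cells the share was below that of TCs. TCs may not be a clean background for Bmp7, since 6.19% of 226 cells of a TC cluster led by Ctla4 and Icos had a UMI.

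Grem1 was found in 2 hair follicle clusters and 1 FB cluster. Bulge-like follicle cells held 170, 460 and 168 CPM in PBMCsec libraries 1, 3 and 4 and 352 and 214 CPM in vehicle libraries 3 and 4, and 43.1% of all Grem1 UMIs. The treatments overlapped. FBs of the Ndufa4l2/Cyp26b1/Cdh4 cluster held another 25.6%, a share that includes 67 UMIs of 1 cell of vehicle library 2, at 200, 111 and 41.4 CPM in PBMCsec libraries 1, 3 and 4 and 80.6 and 0 CPM in vehicle libraries 3 and 4. Outer root sheath-like cells held 23.6%, at 63.7 ± 31.2 CPM (n = 5). The bulge-like mean of 273 ± 129 CPM was above the FB cluster by 2.004 on the log2 scale (SD 1.67, higher in 4 of 5 libraries), and the FB cluster and the outer root sheath-like cells differed by less than the spread. A UMI was found in 52.6% of bulge-like cells, 23.2% of outer root sheath-like cells and 16.8% of that FB cluster. In KCs 0.243% of 824 cells had a UMI, below the limit for TCs. Outside the 3 clusters with most Grem1, sheath and papilla-like FBs held 8.16 CPM on average.

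Fst, in contrast, was found in most FB clusters and in several epithelial ones. It stood at 853 ± 208 CPM (n = 7) in upper follicle-like cells, which held 40.9% of all its UMIs, and at 820 ± 648 CPM (n = 5) in bulge-like cells, where PBMCsec library 3 alone reached 1961 CPM and the other 4 libraries lay between 350 and 649 CPM. Both clusters differed from each other by less than the spread. Inflammatory FB-like cells held 823, 351 and 89.99 CPM in PBMCsec libraries 1, 3 and 4 and 248 CPM in vehicle library 3. Activated KC-like cells ranged from 15.1 CPM in vehicle library 3 to 1162 CPM in PBMCsec library 4. Few of these cells carried the gene: 19.3% of activated KC-like cells had a UMI, compared with 83.4% of upper follicle-like, 64.3% of bulge-like and 64.9% of inflammatory FB-like cells and 1.08% of TCs. Thinned to 1000 UMIs per cell the shares were 9.05%, 47.8%, 29.9% and 21.3% in the same order of clusters, with 0.273% of TCs.

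Among the FB, KC and HF clusters Bambi was highest in inner root sheath-like cells. Inner root sheath-like cells held 324 and 200 CPM in PBMCsec libraries 3 and 4 and 314 and 276 CPM in vehicle libraries 3 and 4, and 37.2% of all Bambi UMIs. Matrix and proliferating-like cells came next among these clusters at 45.4 ± 26.3 CPM (n = 5), lower in 4 of 4 libraries by 2.10 on the log2 scale (SD 0.46). This cluster, led by Mki67 and Top2a, was placed among HFs by cell cycle markers alone, so cycling KCs may be among its cells. A UMI was found in 57.4% of inner root sheath-like cells. In FBs the share was 5.60%, and 0.820% after thinning to 1000 UMIs, compared with 4.601% and 2.05% in TCs. TCs are no clean background here, since 16.7% of 54 cells of a Trdc-positive TC cluster had a UMI, and expression in FBs cannot be told from background by these shares. Among endothelial cells, 28.9% of 83 had a UMI.

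Within the epidermis Id1 had its highest mean in suprabasal and its lowest in activated KC-like cells. Suprabasal KC-like cells held 47.1, 202 and 77.0 CPM in PBMCsec libraries 1, 3 and 4 and 210 and 258 CPM in vehicle libraries 3 and 4, basal KC-like cells 92.1 ± 48.5 CPM (n = 6) and activated KC-like cells 24.9 ± 19.9 CPM (n = 6). PBMCsec library 1 was the lowest of all libraries in each of the 3 KC clusters, at 16.6 CPM in the basal and 1.90 CPM in the activated one. Inner root sheath-like cells held 215 ± 53.5 CPM (n = 4) and did not differ from suprabasal KC-like cells by more than the spread. In FBs Id1 was low, with a UMI in 6.41% of cells against 37.7% of KCs, 31.2% of HFs and 1.35% of TCs.

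Id2 was higher in lymphoid cells than in any FB, KC or HF cluster. Innate lymphoid-like cells held 2632 ± 747 CPM (n = 5) and 73.5% of TCs had a UMI. Among epithelial clusters the bulge-like cells held 222 ± 105 CPM (n = 5), the matrix and proliferating-like cells 184 ± 71.95 CPM (n = 5) and the inner root sheath-like cells 165 ± 121 CPM (n = 4), with no difference between neighbours beyond the spread. The Mgp/Angptl1/Apod-type FB-like cells held 162 ± 27.0 CPM (n = 5), with all libraries between 126 and 197 CPM. KCs had the lowest share of the 3 tested classes, 12.4% of cells.

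Id3 was found throughout the FBs. A UMI was present in 68.7% of FBs and in 47.4 to 86.8% of cells of the 8 FB clusters. The highest levels among FB, KC and HF clusters were 682 ± 259 CPM (n = 5) in Mgp/Angptl1/Apod-type FB-like cells and 604 ± 250 CPM (n = 6) in the FB cluster led by Nsg1, Cxcl1 and Ace, which did not differ by more than their spread. Within FBs it was lowest in the 2 clusters with most Bmp4, at 306 ± 74.3 CPM (n = 5) in sheath and papilla-like cells and 193 ± 120 CPM (n = 5) in the Ndufa4l2/Cyp26b1/Cdh4 cluster. In the epithelium, inner root sheath-like cells held 407 ± 172 CPM (n = 4). In companion layer-like cells 5.26% and 4.17% of cells had a UMI in the 2 clusters, below the 6.63% of TCs. Whether this share of TCs is background was not tested.

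Id4 was highest in the outer root sheath. In outer root sheath-like cells it stood at 995, 985 and 1452 CPM in PBMCsec libraries 1, 3 and 4 and at 1547 and 2122 CPM in vehicle libraries 3 and 4. These 328 cells held 52.4% of all Id4 UMIs, and 96.0% of them had at least 1 (exact binomial interval 93.3 to 97.9%, against 1.08% of TCs), or 70.1% after thinning to 1000 UMIs. Companion layer-like cells held 526 ± 132 CPM (n = 5) and 442 ± 104 CPM (n = 4) in their 2 clusters and contractile-like cells, marked by Tagln and Acta2, 450 ± 175 CPM (n = 5). Companion layer-like cells of the first of these clusters were below the outer root sheath-like cells in 4 of 4 libraries by 1.58 on the log2 scale (SD 0.07), whereas the companion layer-like and contractile-like clusters differed from each other by less than the spread. In upper follicle-like cells Id4 was at 7.76 ± 4.18 CPM (n = 7). Of 38 pericyte-like cells, 55.3% had a UMI of Id4, and the 9 smooth muscle and pericyte markers, some of them markers of the contractile cells too, summed to 234 to 5015 CPM in the HFs of single libraries. Their part in the Id4 level of HFs was not tested. Within the 20 FB, KC and HF clusters, the highest mean was thus in inner root sheath-like cells for Id1, bulge-like cells for Id2, an FB cluster for Id3 and outer root sheath-like cells for Id4.

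**Figure D2:**
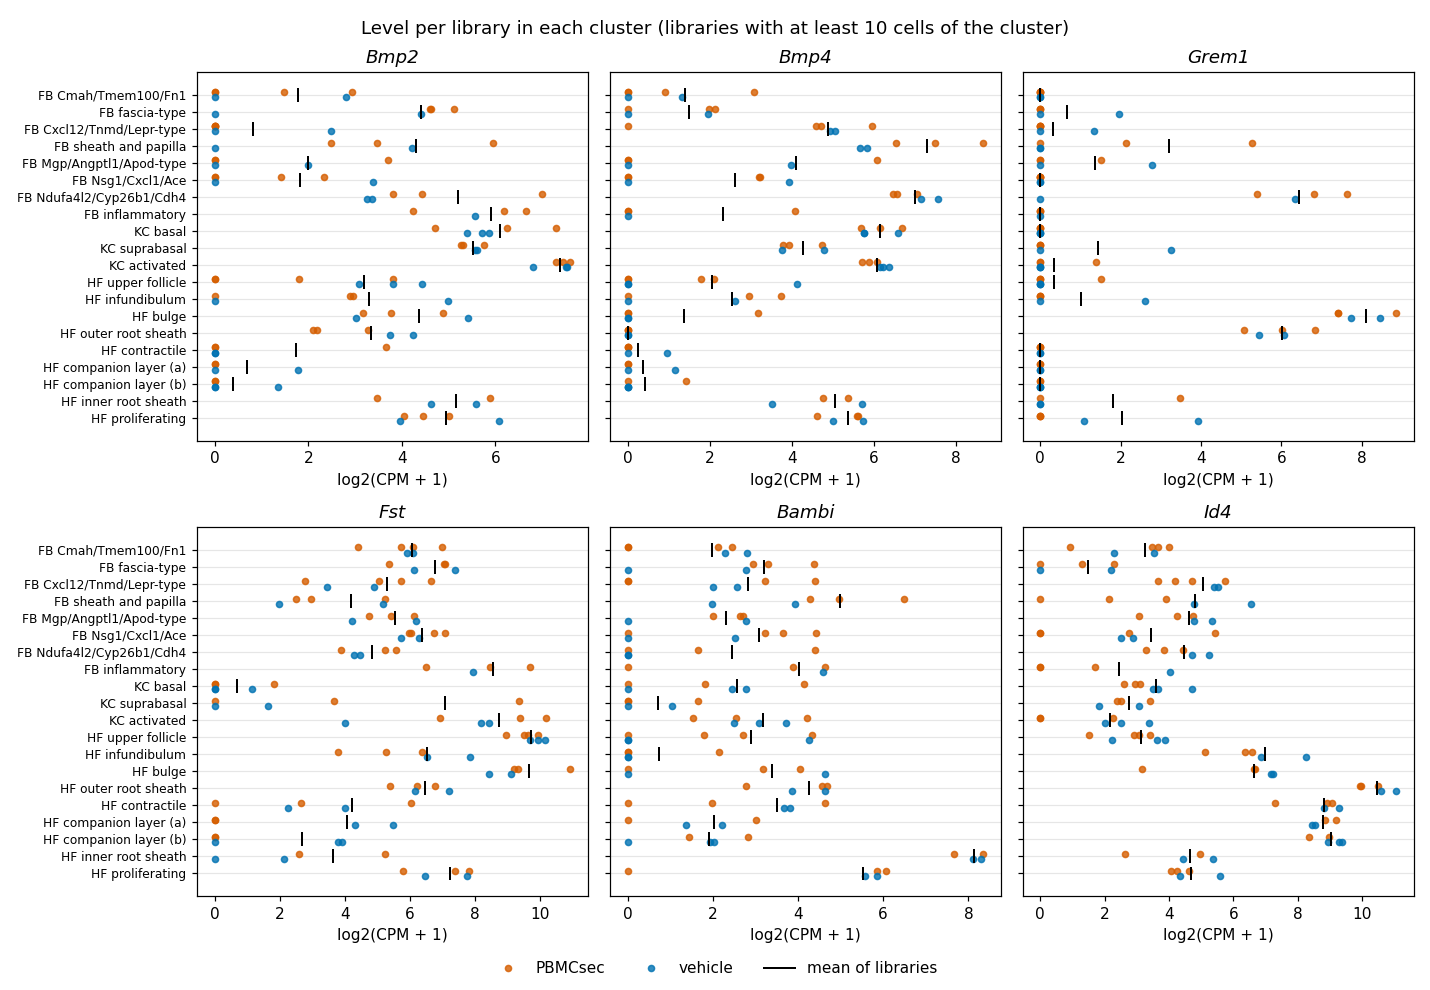
Level per library, log2(CPM + 1), of 6 members in the 20 FB, KC and HF clusters. Points are libraries with at least 10 cells of the cluster (PBMCsec orange, vehicle blue) and bars the mean of these libraries. Outer root sheath-like cells have all their libraries at the right of the Id4 panel. In the Bmp4 panel the libraries of sheath and papilla-like FBs, highest by mean, spread over those of other clusters.

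Genes of like pattern were ranked by Pearson r of log2(CPM + 10) over 31 clusters among 6941 genes. These values are descriptions, since clusters share libraries and depth. Id4 was most like Kcnk2 (r = 0.95), Tbx1 (0.91) and Samd5 (0.90), and Bambi was most like the inner root sheath keratin genes Krt28 (0.74) and Krt27 (0.72) and the companion layer keratin gene Krt75 (0.71). Bmp2 was followed by Fosl1 (0.79), Mt2 and Trp53bp2, Bmp4 by Cpxm2 (0.78), Cyp26b1 and Cdh13, and Bmp7 by Efnb2 (0.70), Kank1 and Arl4a. Of the antagonists, Grem1 was most like Fxyd6 (0.68), Hmcn1 and Ctgf, and Fst most like Adamts1 (0.74), Mcc and Kank1. Id1 was most like Nxn (0.85), Urah and Baiap2l1, Id2 like Cntrl (0.89), Gpr171 and Cdc42se2, and Id3 like Htra1 (0.86), Tspan3 and Csrp2. The highest r between members was 0.52.

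FBs were compared with all KCs and HFs (epithelium) in counts summed per library and class, with the library as a block (edgeR quasi-likelihood test, Benjamini-Hochberg adjustment over all 9976 genes tested). In this comparison 33.8% of genes were called higher in FBs and 34.9% higher in the epithelium (68.6% in all) at adjusted p under 0.05. Of the 10 members, 3 were called higher in FBs and 5 higher in the epithelium, a share close to this background. Id3 was between 293 and 630 CPM (median 451) in FBs and between 94.7 and 168 CPM (median 115) in the epithelium, with no overlap of the libraries. Its log2 fold change was 1.94 ± 0.16 (SE, adjusted p = 1.28e-07 by edgeR, n = 8 libraries). Id4 and Id1 lay the other way, also without overlap: Id4 at 7.33 to 28.2 CPM (median 10.95) in FBs and 47.3 to 415 CPM (median 209) in the epithelium, and Id1 at 7.42 to 36.5 CPM (median 11.003) and 38.9 to 125 CPM (median 84.0). Their log2 fold changes of FB against epithelium were -3.97 ± 0.23 (adjusted p = 4.06e-09 by edgeR) and -2.69 ± 0.27 (adjusted p = 1.07e-06). CPM of members per library and class are scaled by TMM factors in this paragraph and the following ones. Pooled levels of clusters, sums of markers and values of barcodes that did not pass the filter are scaled to all UMIs without these factors.

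Bmp2 was lower in FBs in 8 of 8 libraries (log2 fold change -1.48 ± 0.21, edgeR adjusted p = 2.93e-05), as was Fst (-1.42 ± 0.15, adjusted p = 1.90e-06). Bmp4 was higher in FBs in 7 of 8 libraries (0.89 ± 0.25, edgeR adjusted p = 0.00683). The epithelium joins KCs and HFs, which differed for both ligands. Pooled over libraries without TMM factors, Bmp4 was at 37.4 CPM in FBs, 54.0 CPM in KCs and 7.65 CPM in HFs. Bmp2 was at 14.0, 86.2 and 9.82 CPM in the same order. FBs were not tested against KCs or HFs alone. Bambi was lower in FBs than in the epithelium (-1.20 ± 0.46, edgeR adjusted p = 0.0333), and this call was lost without PBMCsec library 3 or 4 or vehicle library 3 or 4 (adjusted p 0.0677, 0.0864, 0.125 and 0.0710). The call of Id2 (0.50 ± 0.20, edgeR adjusted p = 0.0448) was lost in 5 of the 8 leave-outs, with DESeq2, without the library block and at a mitochondrial limit of 10%, where the log2 fold change was 0.10. Bmp7 (-0.25 ± 0.26) and Grem1 (-0.15 ± 0.72) were not called. Grem1 was called lower in FBs without vehicle library 2 (-1.05, edgeR adjusted p = 0.0316).

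**Figure D3:**
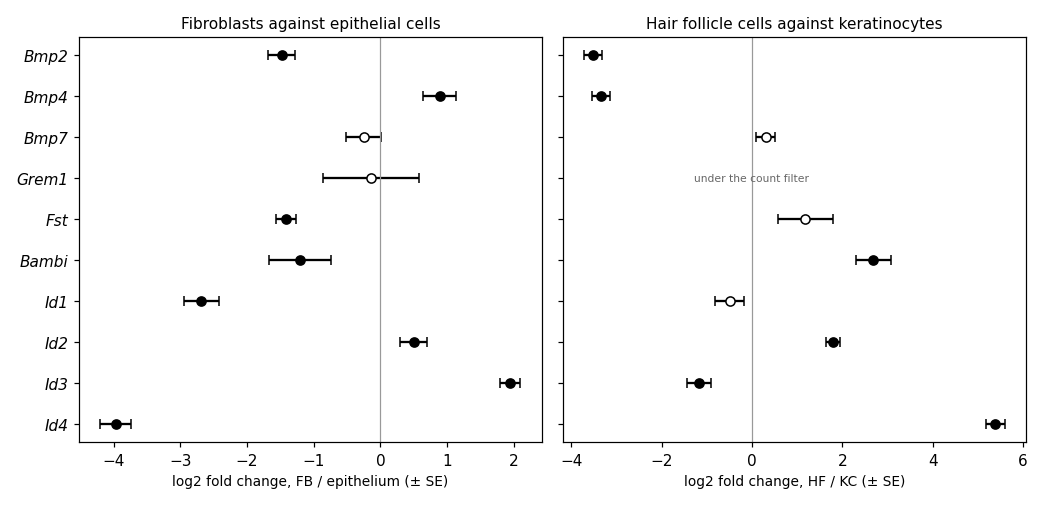
Log2 fold change from edgeR of each member, with an approximate SE derived from the F statistic, for FBs against epithelium (left, 8 libraries) and for HFs against KCs (right, 7 libraries). Filled points passed an adjusted p of 0.05, and Id4 lies at -3.97 on the left and 5.38 on the right.

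Within the epithelium, HFs were compared with KCs in the same way in the 7 libraries with at least 10 cells of both (vehicle library 1 had 8 KCs). Of 9228 genes, 24.0% were called higher in HFs and 25.2% higher in KCs (49.3% in all), and of the 9 members tested 3 were called higher in HFs and 3 in KCs. Bmp2 was at 5.21 to 16.8 CPM (median 10.1) in HFs and 64.8 to 143 CPM (median 86.1) in KCs, and Bmp4 at 0 to 10.8 CPM (median 4.40) and 32.0 to 64.2 CPM (median 57.3). Both ligands were higher in KCs in 7 of 7 libraries without overlap, with log2 fold changes of HF against KC of -3.51 ± 0.20 (edgeR adjusted p = 3.28e-08) and -3.34 ± 0.19 (adjusted p = 4.29e-08). Id4 was higher in HFs, at 228 to 621 CPM (median 377) against 4.41 to 16.0 CPM (median 5.89), a log2 fold change of 5.38 ± 0.21 (edgeR adjusted p = 2.62e-09).

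Bambi (2.68 ± 0.39, edgeR adjusted p = 8.78e-05) and Id2 (1.79 ± 0.14, adjusted p = 6.12e-07) were higher in HFs in 7 of 7 libraries, and Id3 was higher in KCs in 5 of 7 (-1.17 ± 0.26, adjusted p = 0.00210). The 11 TC markers summed to 38.9 to 869 CPM per library in HFs and to 4.95 to 36.3 CPM in KCs. Id2 was high in lymphoid cells, and the part of such RNA in its difference was not tested. Bmp7 (0.30 ± 0.20), Id1 (-0.49 ± 0.32) and Fst (1.18 ± 0.60, edgeR adjusted p = 0.125) were not called. Fst passed without PBMCsec library 1 or 4 (1.61 and 1.70, adjusted p 0.0409 and 0.0358), and Id1 without PBMCsec library 1 (-0.74, adjusted p = 0.0427). Grem1 was under the count filter in this comparison and had 9 UMIs in the KCs of these libraries against 503 in the HFs. The median log2 fold change of all genes was 0.02 with edgeR and 0.12 with DESeq2, and the signs of all 9 members held with both.

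Of the other 40 genes of the pathway, 23 had enough counts in FBs against epithelium (median log2 fold change 0.59, against -0.04 over all genes). Of these, 15 were called higher in FBs and 3 higher in the epithelium, beside 33.8% and 34.9% of all genes. Some had enough counts through FBs, such as Chrd (175 UMIs in FBs, 13 in HFs, 0 in KCs) and Bmper (260, 26 and 0). The count and median therefore do not measure a shift of the list. The ligand genes Bmp3 (1.45) and Gdf10 (2.01) and the activin subunit gene Inhba (4.66), whose product follistatin binds, were higher in FBs, and the other activin subunit gene Inhbb (-1.88) higher in the epithelium. Of the receptors, Eng (5.31), Acvrl1 (4.21), Acvr1 (0.58) and Bmpr2 (0.39) were higher in FBs, as were Smad4 (0.26) and the inhibitory Smad7 (0.59), whereas Smad1 (-0.81) was higher in the epithelium. The antagonists and modulators Fstl1 (6.39), Chrd (4.70), Bmper (4.27), Nbl1 (2.96) and Twsg1 (1.46) and the target Msx1 (1.3) were higher in FBs, and the antagonist Sostdc1 (-3.67) in the epithelium. Between HFs and KCs, 18 of the 40 were tested, with a median of 0.09 against 0.02 over all genes. Of these, 7 were called higher in HFs and 3 higher in KCs, beside 24.0% and 25.2% of all genes. Those higher in HFs were Inhbb (5.24), the targets Dlx3 (4.23) and Msx2 (2.37), Fstl1 (2.82), Sostdc1 (2.29) and the receptors Bmpr1a (0.997) and Acvr2a (0.41). Those higher in KCs were Bmp3 (-3.42), Fstl3 (-1.40) and Smad7 (-0.62). The receptor gene Bmpr1a had its highest pooled level, 269 CPM, in 1 of the companion layer-like clusters, Inhba (297 CPM) in sheath and papilla-like FBs, Sostdc1 (1097 CPM) in the upper follicle-like cells that were also rich in Fst, and Msx2 (233 CPM) and Dlx3 (277 CPM) in the inner root sheath-like cells with Bambi and Id1.

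To ask whether PBMCsec changed these genes, libraries of both treatments were compared in FBs (4 against 4), HFs (4 against 4) and KCs (4 against 3, without vehicle library 1). No gene was called by edgeR at adjusted p under 0.05 in any of the 3 classes (0.00% of 9582, 10458 and 7622 genes). At an unadjusted p under 0.05 there were 185 genes in FBs (1.93%), 248 in HFs (2.37%) and 81 in KCs (1.06%), and no member was among them. Every member's adjusted p was 0.9997 or more. DESeq2 called 0 genes in FBs and HFs and 2 in KCs. A library is a mouse by its label, and p-values measure the spread between these libraries. In all 3 classes the ranges of both treatments overlapped for every member, while 1.45% (FBs), 2.89% (KCs) and 2.05% (HFs) of all genes tested had no overlap. Within single clusters some ranges given above did not overlap. Examples are Bmp7 in upper follicle-like cells, Id1 in suprabasal KC-like cells, Id4 in outer root sheath-like cells and Bmp4 in sheath and papilla-like FBs. Bmp4 in the Ndufa4l2/Cyp26b1/Cdh4 FBs was also apart, in the opposite direction. For Id1, Id4 and Bmp4 these are 3 against 2 libraries, and ranges of so few libraries often separate by chance. Those of Bmp7 are 4 against 3 libraries and can do so too. In sheath and papilla-like FBs the Bmp4 ranges were apart only because vehicle libraries 1 and 2 had too few such cells to be included. Their Bmp4 levels given above exceeded those of the PBMCsec libraries listed, so with them the ranges overlap. Treatment was not tested within clusters, and the share of all genes without overlap was not counted there. A p that misses the threshold does not show equal levels, and standard errors of the members' log2 fold changes ran from 0.22 to 1.39.

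In FBs, where all 10 members had enough counts, Bambi had the smallest p. It was at 24.5, 8.30, 7.97 and 5.27 CPM in PBMCsec libraries 1 to 4 and at 14.7, 5.25, 4.92 and 3.44 CPM in vehicle libraries 1 to 4, on 1 to 43 UMIs per library, and the log2 fold change of PBMCsec against vehicle was 1.12 ± 0.59. Library 1 was the highest in both groups. Grem1 was at 21.7, 13.3, 11.4 and 3.96 CPM after PBMCsec and at 7.33, 399, 7.54 and 0 CPM after vehicle. The high value of vehicle library 2 came from 76 UMIs in 2 of 27 FBs, and 67 of them (88.2%) lay in 1 cell. The log2 fold change of -2.46 ± 1.39 turned to 1.38 without this library and to 0.65 without that cell, a comparison chosen after seeing the data.

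Bmp4 in FBs was at 77.0, 24.9, 28.4 and 26.4 CPM after PBMCsec and at 139, 142, 30.8 and 19.3 CPM after vehicle (log2 fold change -0.73 ± 0.63). Vehicle libraries 1 and 2 and PBMCsec library 1 stood above the other 5. In vehicle libraries 1 and 2, 35 of 38 and 23 of 27 Bmp4 UMIs came from sheath and papilla-like FBs, which made up 9.68% and 25.9% of their 31 and 27 FBs, against 1.43 to 17.3% in the other libraries. The part of this composition in the difference was not tested. Bmp7 was also highest in vehicle libraries 1 and 2, at 62.3 and 68.2 CPM, against 1.66 to 42.9 CPM in the other 6 (-0.49 ± 0.51). PBMCsec library 1, high for Bmp4, was at 30.8 CPM for Bmp7. When the comparison was limited to libraries 3 and 4, Bmp4 gave 0.11 and Bmp7 gave 0.30 on the log2 scale.

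None of the remaining members passed the test in FBs. Id3, with 80 to 2366 UMIs per library, was at 342, 407, 510 and 445 CPM after PBMCsec and 293, 630, 457 and 576 CPM after vehicle (-0.20 ± 0.25). Id2 was at 70.2 to 125 CPM and 52.5 to 100 CPM (0.25 ± 0.25), and Fst at 36.3 to 125 CPM and 55.02 to 147 CPM (0.05 ± 0.40). Bmp2 (0.86 ± 0.56), Id4 (-0.68 ± 0.41) and Id1 (-0.05 ± 0.48) rested on at most 79, 61 and 50 UMIs per library.

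In KCs 7 members had enough counts, and Bambi, Grem1 and Id4 did not (29, 9 and 69 UMIs in all). Bmp2 was at 143, 96.1, 86.1 and 64.8 CPM in PBMCsec libraries 1 to 4 and at 87.3, 80.0 and 76.3 CPM in vehicle libraries 2 to 4 (0.27 ± 0.29), and Bmp4 at 32.0 to 59.7 CPM and 40.2 to 64.2 CPM (-0.10 ± 0.29). These 2 ligands and Id3 (136 to 177 CPM after PBMCsec, 158 to 167 CPM after vehicle, -0.06 ± 0.22) had the smallest standard errors in KCs. Fst was at 476, 40.1, 34.5 and 236 CPM after PBMCsec and at 190, 4.63 and 55.9 CPM after vehicle, with a log2 fold change of 1.49 ± 0.97. Leaving out PBMCsec library 1 gave 0.64 and leaving out vehicle library 2 gave 2.82, the extremes over single omissions, and with no count filter Fst was called (1.48, edgeR adjusted p = 0.000932). Its UMIs lay in few cells: 491 in 14 of 86 KCs of PBMCsec library 1, and 96 in 5 of 152 KCs of vehicle library 4, 80 of these in 1 cell. Id1 was at 15.5, 24.0, 127 and 68.3 CPM and at 46.2, 122 and 195 CPM (-0.93 ± 0.56), and omission of 1 library gave values between -1.70 (PBMCsec library 3 omitted) and -0.43 (vehicle library 4 omitted). Activated KC-like cells, the KC cluster with least Id1 and most Fst, made up 43.0% of KCs in PBMCsec library 1 and 52.0% in vehicle library 2, compared with 20 to 25.6% in the other 5 libraries tested, and the part of this share was not tested. Bmp7 (0.20 ± 0.32) and Id2 (-0.32 ± 0.46) overlapped likewise.

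In HFs all 10 members were tested. Bmp2, with 2 to 66 UMIs per library, was at 6.68, 5.21, 11.8 and 6.20 CPM after PBMCsec and at 18.9, 16.8, 10.1 and 11.5 CPM after vehicle (-0.63 ± 0.35), and 1 PBMCsec library overlapped with the vehicle range. Omitting 1 library gave between -0.9997 (PBMCsec library 3) and -0.46 (PBMCsec library 4), and the value was -0.25 in the libraries numbered 3 and 4 alone and -0.059 at a mitochondrial limit of 10%. Grem1 was at 40.1, 5.21, 64.0 and 12.7 CPM and at 0, 11.2, 21.5 and 17.6 CPM (0.999 ± 0.58). Bulge-like cells were its main source over pooled HFs. In PBMCsec library 1 and vehicle library 3, outer root sheath-like cells held more (32 of 60 and 80 of 141 UMIs). The bulge-like cells made up 9.25, 9.30, 16.99 and 4.36% of HFs in PBMCsec libraries 1 to 4 and 0, 11.3, 4.78 and 6.46% in vehicle libraries 1 to 4. Whether the level per cell or the share of cells differed could not be told apart in the summed counts.

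Id4 in HFs was at 264, 258, 228 and 543 CPM after PBMCsec and at 56.6, 377, 477 and 621 CPM after vehicle (-0.28 ± 0.50). The lowest value belonged to vehicle library 1, in which 0 of 18 HFs were outer root sheath-like, compared with 11.3 to 20.5% in the other 7 libraries. Fst was at 140 to 573 CPM and 141 to 459 CPM (0.33 ± 0.47), Id3 at 46.1 to 180 CPM and 48.5 to 120 CPM (0.53 ± 0.42) and Bambi at 7.35 to 49.5 CPM and 6.29 to 44.2 CPM (-0.12 ± 0.49). Id1 (-0.22 ± 0.33), Id2 (-0.20 ± 0.31), Bmp4 (-0.51 ± 0.58) and Bmp7 (-0.07 ± 0.39) completed the list.

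**Figure D4:**
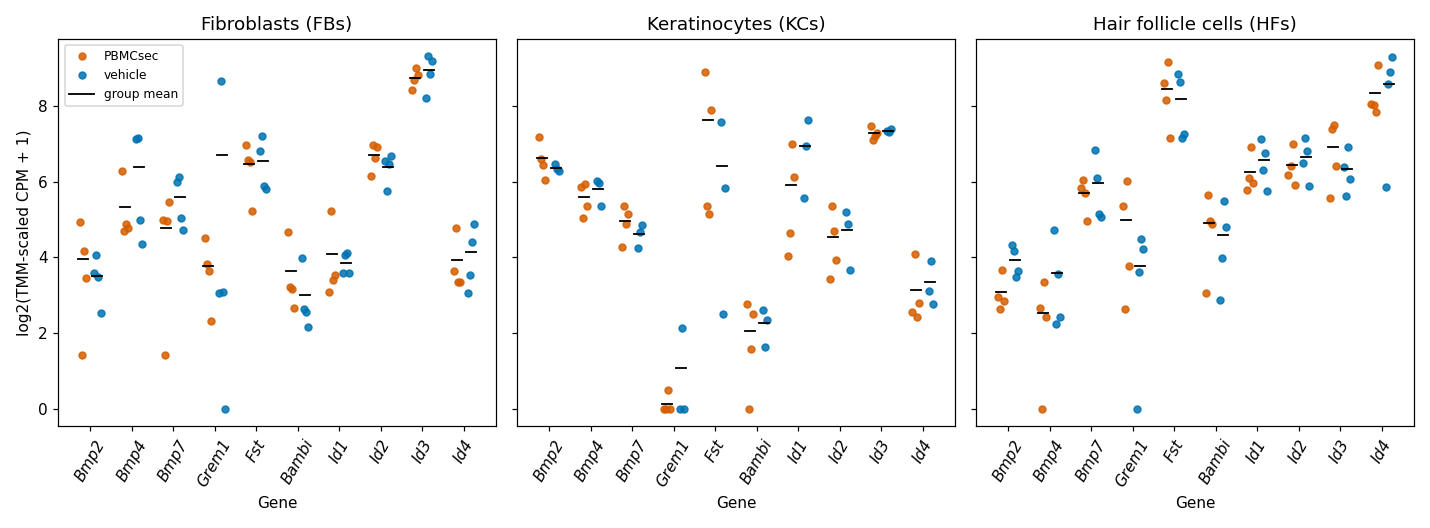
Level of each member per library, log2(TMM-scaled CPM + 1), in FBs, KCs and HFs, with PBMCsec in orange, vehicle in blue and a bar at the mean of the CPM values of each group. Points of a group run from library 1 at the left to 4 at the right, the 2 treatments overlap for every member, and vehicle library 2 stands apart for Grem1 in FBs.

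**Figure D5:**
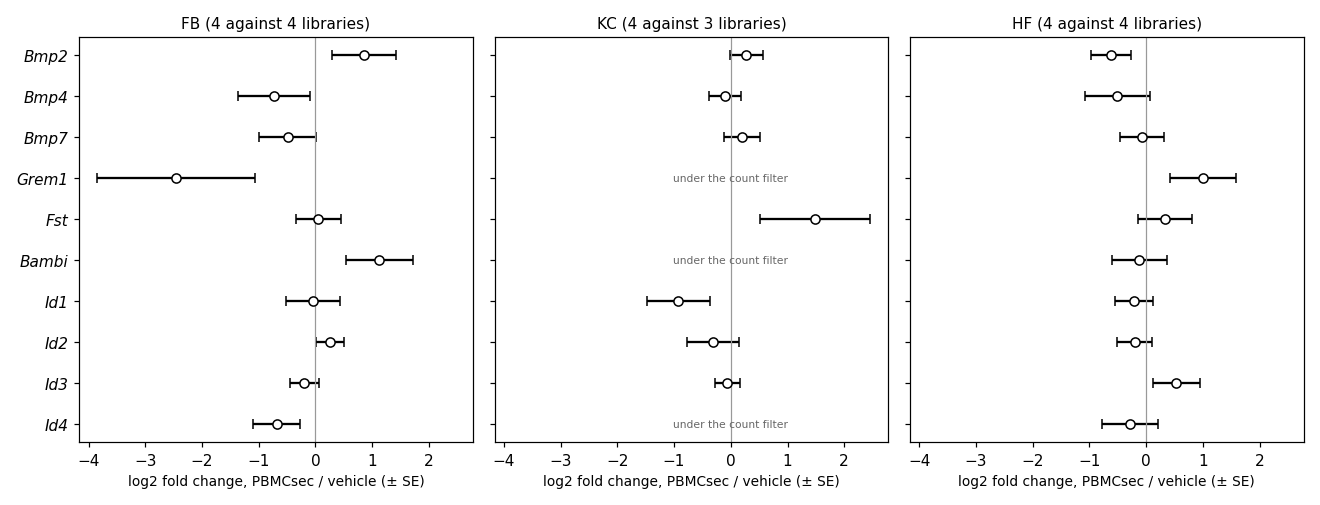
Log2 fold change of PBMCsec against vehicle from edgeR for each member in FBs, KCs and HFs, with an approximate SE derived from the F statistic. All points are open because none passed an adjusted p of 0.05, and Grem1 in FBs has the widest error.

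Whether the treatment difference of a member varied between the 3 classes was tested over the libraries with exact two-sided permutation tests in 24 pairs of member and classes. The smallest p was 0.143, for Bmp2 in FBs against HFs and in KCs against HFs (adjusted p = 0.844). With 4 against 4 libraries this permutation test cannot give a p under 0.0286. Adjusted over 24 tests, 1 pair alone could not reach 0.05, so the absence of a call does not show like differences in the 3 classes. Among the 40 other pathway genes no call was made in any class. Medians were -0.04 in FBs (28 tested), -0.08 in KCs (13 tested) and -0.0041 in HFs (20 tested), against -0.0044, 0.0045 and 0.0085 over all genes. At an unadjusted p under 0.05 there was only Msx1 in FBs, a BMP target gene (1.02 ± 0.42, edgeR adjusted p = 0.9997), beside 1.93% of all genes tested there.

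The barcodes that did not pass the filter were summed per library as well. In these, Bmp4 was at 10.996 to 22.4 CPM in the 4 PBMCsec libraries and at 24.4 to 28.8 CPM in the 4 vehicle libraries, without overlap, as were 1.75% of the 14854 genes tested. The log2 fold change was -0.60 ± 0.20 (SE, edgeR adjusted p = 0.9998), with an unadjusted p under 0.05, as 1.74% of genes had. No gene was called at adjusted p under 0.05. The other 9 members overlapped between treatments. These barcodes were not assigned to classes, and fewer cells of a type and less RNA per cell cannot be told apart in them.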

How the data were processed

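Libraries were made from dorsal skin with the 10x 3′ method, 1 per mouse. The UMI counts per gene and barcode deposited by the authors were used without normalization, and per the labels they were made with Cell Ranger 3.0.2 on mm10. Total counts were 14753926 to 37880651 UMIs per library.

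Barcodes were kept when they had between 500 and 4000 detected genes, no more than 20000 UMIs and a mitochondrial share up to 5%. They were integrated and clustered in Seurat 5.3.0 (2000 features, 30 dimensions, resolution 1) without the members and 40 further pathway genes. A cluster was given a class where 3 or more markers of a list were each present in 25% of its cells or more, at 2 times the level of the median cluster. FB and epithelial subtypes were named in the same way, with levels compared with the pooled other clusters of that class. Where several subtype lists passed, the list with the largest share of its markers was taken. These rules were set after the clusters were seen. No doublet caller was applied in the main analysis. A cluster of 126 cells stayed unnamed and entered no comparison.

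Counts were summed per library and class (at least 10 cells) and tested with edgeR 4.0.16 (quasi-likelihood, TMM, filterByExpr, Benjamini-Hochberg adjustment, threshold 0.05) under R 4.3.3. Comparisons of classes had the library as a block. The SE of an edgeR log2 fold change was taken as its absolute value over the square root of the F statistic. This is an approximation and need not match the p-value. Collagen or keratin genes were left out of the treatment tests as possible free RNA. Shares were also given after thinning to 1000 UMIs. Exact binomial intervals (95%) were computed with scipy 1.17.1 for shares above 0. The limit given for a count of 0 is 3 cells of the total and not the bound of an exact interval. Alternatives were DESeq2 1.42.0, no count filter, a replicate block, single libraries left out, libraries by number, a mitochondrial limit of 10% (4968 cells more) and removal of the 276 cells with the highest doublet scores (scanpy 1.11.5). All members were reported whether or not they passed the filter, other pathway genes by name where called (or, with none called, at unadjusted p under 0.05), and for each member the 3 genes of most like pattern. The members and lists were chosen with earlier results of these data known. Scripts were tested on simulated data.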

Additional observations from a re-analysis of the deposited data

Results flagged for a closer look

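Of 50 groups of 4 libraries, 9 held a library far from the other 3 by Dixon's ratio (critical value 0.829). For independent groups of normal values chance gives about 1 in 20. Here groups share libraries and some CPM values rest on few UMIs, so 9 of 50 cannot be set against that rate. In FBs, PBMCsec library 1 was highest for Bmp4, at 77.0 CPM against 24.9 to 28.4 CPM in the other 3, and for Bambi, at 24.5 CPM against 5.27 to 8.30 CPM. PBMCsec library 2 was highest in FBs for Id1 (36.5 CPM, 22 UMIs) and Id4 (26.6 CPM, 16 UMIs). Among vehicle libraries, library 2 was highest for Grem1 in FBs, at 399 CPM against 0 to 7.54 CPM, with 67 of its 76 UMIs in 1 cell, and library 1 was highest for Bambi (14.7 CPM, 4 UMIs).

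In KCs, Grem1 in PBMCsec library 3 stood apart at 0.401 CPM on 1 UMI, and Id4 in PBMCsec library 2 at 16.0 CPM on 2 UMIs. In HFs, Id4 was at 543 CPM in PBMCsec library 4 and at 228 to 264 CPM in the other PBMCsec libraries.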

How the results depend on the processing

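No gene was called for treatment in FBs, KCs or HFs by edgeR, and this count became 3 in FBs (2 higher, 1 lower) and 20 in KCs (19 higher, 1 lower) with libraries 1 and 2 alone, 1 in HFs with libraries 3 and 4 alone, and 2 with DESeq2 and 28 without the count filter in KCs. Leaving out 1 library gave 0 calls in FBs and HFs and 0 to 5 in KCs, 5 without PBMCsec library 3 and 1 without vehicle library 3. Fst in KCs was called without the filter (1.48, adjusted p = 0.000932 by edgeR), and the cause was not tested.

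The log2 fold changes of members for treatment, none of them called, changed sign in 19 of 154 values in FBs, 7 of 98 in KCs and 18 of 144 in HFs. With libraries 3 and 4 alone, FBs gave 0.89 for Grem1, 0.30 for Bmp7 and 0.11 for Bmp4, KCs -0.033 for Bmp2, 0.0021 for Bmp4 and 0.026 for Id2, and HFs 0.16 for Id1, 0.28 for Bmp7 and 0.14 for Id2. With libraries 1 and 2 alone, Fst was -0.20 in FBs and -0.38 in HFs, and Id4 0.16 in HFs. Id3 was 0.0100 in KCs, where this setting held 1 vehicle library. DESeq2 gave 0.10 for Id1 and -0.024 for Fst in FBs and 0.084 for Bambi in HFs. At a mitochondrial limit of 10%, Id1 was 0.14 and Id3 0.12 in FBs, and Id1 0.0125 and Fst -0.11 in HFs. Without the highest doublet scores, Id1 was 0.026 in FBs, and Id2 0.030 in KCs and 0.038 in HFs. Without 1 fibroblast, chosen after seeing the data, Grem1 was 0.65 in FBs. Leaving out 1 library gave ranges across 0 in FBs for Grem1 (-3.15 to 1.38), Id1 (-0.58 to 0.20) and Fst (-0.20 to 0.32), in KCs for Bmp2 (-0.020 to 0.43), and in HFs for Bmp7 (-0.34 to 0.22), Id4 (-0.67 to 0.034), Fst (-0.050 to 0.63), Id2 (-0.50 to 0.0054) and Bambi (-0.34 to 0.41).

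Whether equal library numbers mark a pair or a shared batch was not settled. Correlations of deviations of same-numbered libraries were -0.01 to 0.24 in FBs, -0.02 to 0.34 in KCs and 0.04 to 0.48 in HFs. Differently numbered libraries were not compared in this way. With the number as a replicate block no gene was called, and Fst in FBs (-0.048), Bmp2 in KCs (-0.014) and Bambi in HFs (0.081) changed sign.

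In FBs against epithelium, 102 of 120 values kept sign and side of the threshold. Grem1 was 0.75 without the library block and -1.05 to 0.31 with 1 library left out, and Bmp7 was called at a mitochondrial limit of 10% (-0.49). In HFs against KCs, 91 of 96 did, and Fst was also called without the count filter (1.17) and at a mitochondrial limit of 10% (1.24). Vehicle libraries 1 and 2 held the fewest cells, 151 and 208.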
